A study of Mus musculus with 16 samples.

Results

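The olfactory signal transduction cascade turns the binding of an odorant into an electrical signal in the cilia of olfactory sensory neurons. Its 10 members here were taken by gene symbol, as the probe sets annotated to Gnal, Gnb1, Gng13, Adcy3, Cnga2, Cnga4, Cngb1, Ano2, Slc24a4 and Pde1c. Each symbol matched 1 probe set, which gives 10 of the 22206 probe sets tested. RNA came from dissociated olfactory mucosa of S100a5-tauGFP mice, sorted into GFP+ and GFP- cells and measured on Clariom S mouse arrays. The 24 mice were 7 to 12 weeks old, of both sexes, and all carried the reporter. They were housed singly in chambers supplied with clean air for 40 h, and after 26 h 4 pools of 3 mice received 1-pentanethiol, a thiol odorant, while the other 4 pools received filtered air, in pulses of 10 s with an interval of 20 min. An array of GFP+ cells and another of GFP- cells came from each pool, hence 4 arrays in each of the groups odor GFP+, odor GFP-, vehicle GFP+ and vehicle GFP-. The text that describes the series names bourgeonal in place of 1-pentanethiol, and the sample labels and title were followed. The labels give neither the copy number of the reporter nor the sorting gates.

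In mouse olfactory neurons, an odorant receptor activates the G protein formed by Gnal (the alpha subunit, Golf), Gnb1 (a beta subunit) and Gng13 (a gamma subunit). Adcy3, the ciliary adenylyl cyclase, then makes cAMP, which opens a cation channel built from Cnga2, Cnga4 and Cngb1. Calcium entering through that channel opens the chloride channel Ano2, which amplifies the current, and is later extruded by the exchanger Slc24a4, while Pde1c, a phosphodiesterase stimulated by calcium and calmodulin, degrades cAMP in the cilia. S100a5, the gene whose name the reporter carries, is known as activity-dependent in these neurons, so GFP is used to mark neurons with a recent history of activity.

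Levels are the deposited log2 signals, on which 1 unit is a 2-fold difference, and they are not comparable between genes. The S100a5 probe set averaged 16.88 ± 0.25 on GFP+ arrays and 15.95 ± 0.24 on GFP- arrays (SD, n = 8 each), a difference of 0.93 ± 0.09 (SE). Omp, a general marker of mature olfactory neurons, averaged 18.34 ± 0.06 on GFP+ arrays and 18.30 ± 0.07 on GFP- arrays (SD, n = 8 each). Of 6 mature neuron markers 2 were higher in GFP+ cells, Ric8b and Umodl1. The 5 neutrophil markers listed were all lower in GFP+ cells, with a mean level between 7.12 and 8.91 on GFP+ arrays and between 15.20 and 16.30 on GFP- arrays. Markers called lower in GFP+ cells also comprised 5 of 5 of tuft-like microvillar and chemosensory cells, 3 of 3 of ionocyte-like microvillar cells, 4 of 4 of dividing and globose basal cells, 4 of 5 of immature neurons, 3 of 3 of lymphocytes, 3 of 4 of sustentacular cells, 1 of 3 of macrophages, 2 of 4 of guanylate cyclase D neurons, the 1 measured of erythroid cells and 0 of 3 of Bowman's glands. RNA of other cell types was thus higher in the GFP- fraction, and its part in the member differences was not tested. The GFP+ array of vehicle pool 2 stood apart, with a negative control median of 7.28, against 6.22 to 6.48 on the other 7 GFP+ arrays. The counts of calls, the correlations between members and the Cngb1 values that it moved are also given without it. In bulk RNA of sorted cells, fewer cells of a type and less RNA per cell cannot be told apart.

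Between GFP+ and GFP- cells, 5 of the 10 members were higher in GFP+ cells over all 8 pools: Adcy3, Cngb1, Ano2, Slc24a4 and Pde1c. Members were not tested against each other. No member was called lower. The largest fitted difference on the deposited scale was that of Pde1c, at 0.65 ± 0.07 (SE), although with quantile normalization the dim Cngb1 was at 0.77 (adjusted p = 3.32e-05) and Pde1c at 0.65. In that normalization 5 members were called over all pools, 4 in odor pools and 3 in vehicle pools. The shares of all probe sets called higher were then 29.3%, 16.2% and 16.5%, in the same order. On the deposited scale the 3 G protein subunits and the channel subunits Cnga2 and Cnga4 did not pass the test. Replicates are pools of mice, and the tests use the spread between the pools of a group. Both arrays of a pool were treated as independent, except where the pool was a block. Calls come from limma, a linear model over all 16 arrays, at a p under 0.05 after Benjamini-Hochberg adjustment over the 22206 probe sets. By the same rule 22.9% of all probe sets were higher in GFP+ cells and 15.1% were lower. The median difference was 0.19 over the members and 0.14 over all probe sets, so the members' share of calls was above that of all probe sets while their median lay near that of all.

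**Figure D1:**
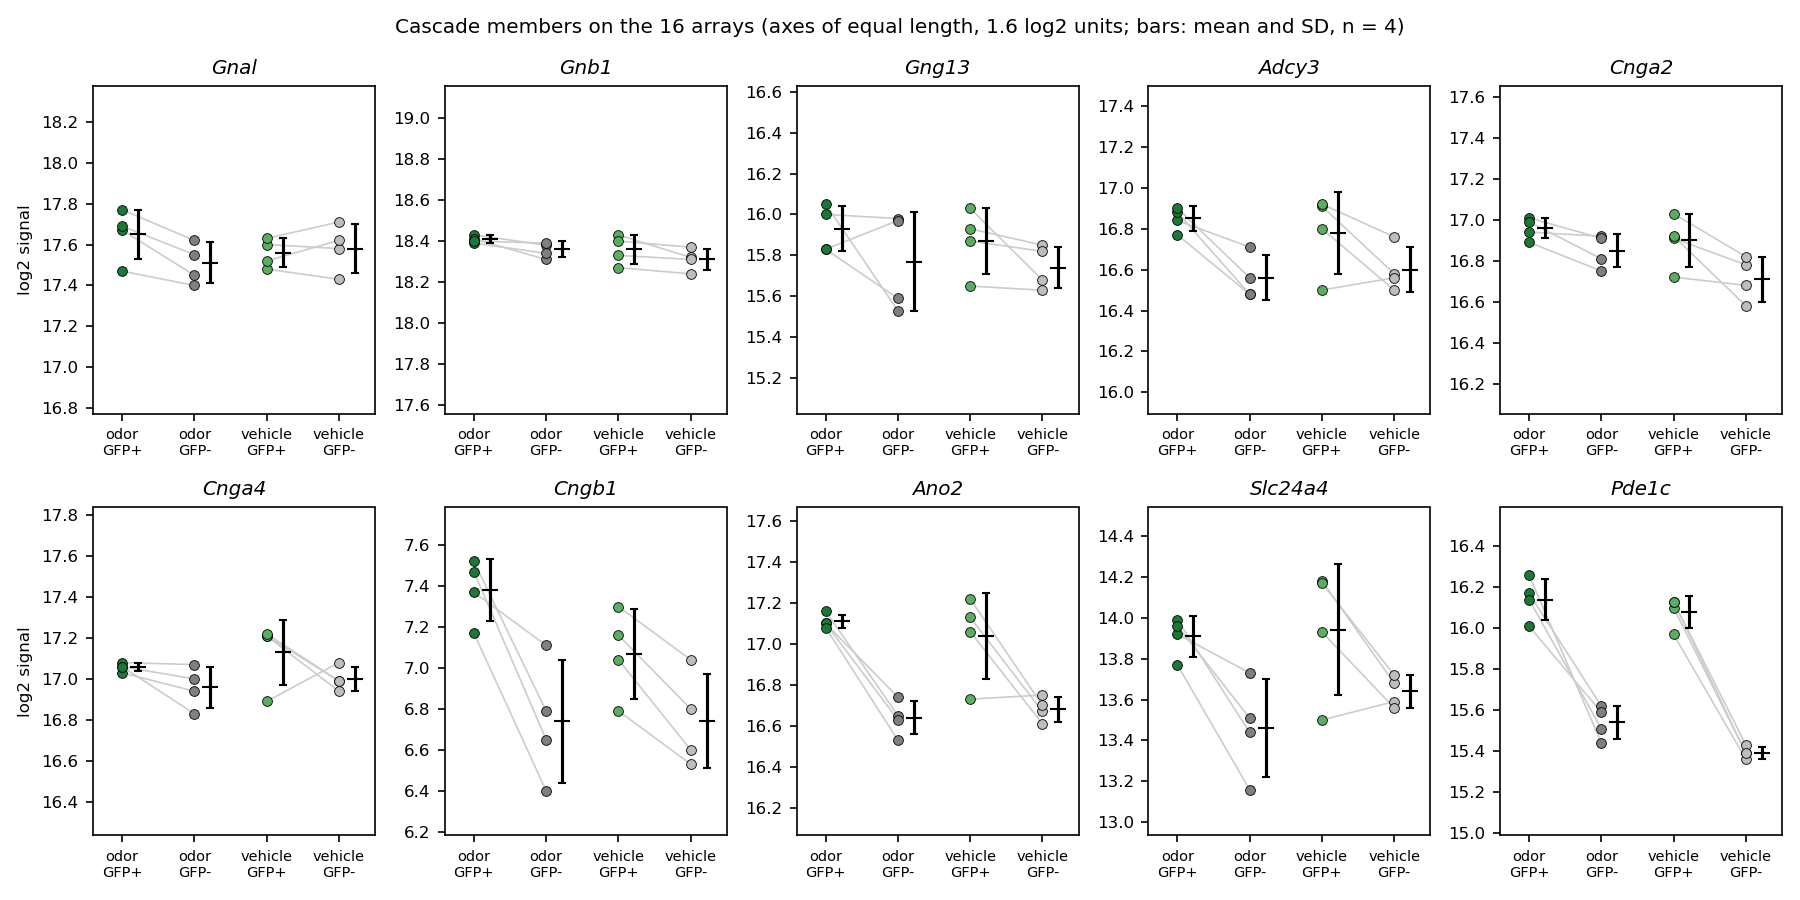
Log2 signal (vertical axis) of the 10 members on each of the 16 arrays, by group; points are arrays, grey lines join the GFP+ and GFP- arrays of a pool, and black bars give the mean and SD of 4 arrays. Pde1c is the only member whose 8 GFP+ arrays all lie above its 8 GFP- arrays, and the lowest vehicle GFP+ point of Ano2 and of Slc24a4 is vehicle pool 2.

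None of the G protein subunits passed the test between the fractions. Gnal, the alpha subunit that couples receptors to the cyclase, ranged from 17.47 to 17.77 (median 17.62) on GFP+ arrays and from 17.40 to 17.71 (median 17.56) on GFP- arrays, a difference of 0.06 with a 95% interval from -0.10 to 0.22. Gnb1 ranged from 18.27 to 18.43 (median 18.40) on GFP+ arrays and from 18.24 to 18.39 (median 18.33) on GFP- arrays, a difference of 0.05 (interval -0.09 to 0.19). Gng13, the gamma subunit, ranged from 15.65 to 16.05 (median 15.90) on GFP+ arrays and from 15.53 to 15.98 (median 15.75) on GFP- arrays, a difference of 0.14 (interval -0.05 to 0.34). The GFP+ and GFP- ranges overlapped in all 3 genes. Gnb1 and Gnal were among the brightest probe sets on these arrays, whose highest value was 18.85, and whether signals that high still change in proportion to RNA was not tested. The intervals exclude a difference of more than 0.34 for the 3 subunits on the deposited scale.

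Adcy3, which makes the cAMP of the cascade, had 16.84, 16.88, 16.90 and 16.77 in odor GFP+ cells, against 16.71, 16.48, 16.56 and 16.48 in odor GFP- cells. In vehicle pools it had 16.91, 16.50, 16.92 and 16.80 in GFP+ cells, against 16.58, 16.56, 16.76 and 16.50 in GFP- cells. All odor GFP+ arrays lay above all odor GFP- arrays, narrowly (16.77 against 16.71), and the vehicle groups overlapped through the GFP+ array of pool 2. The share of all probe sets separated in this way in odor pools was not counted. The fitted difference was 0.24 ± 0.08 (SE; 1.18-fold; adjusted p = 0.0319), and Adcy3 was higher in 7 of 8 pools. This call was the least steady of the 5, since it passed in 9 of 16 alternative settings (adjusted p 1.8e-05 to 0.597) and was lost without odor pool 2, 3 or 4 or vehicle pool 1 or 4 (adjusted p 0.0617 to 0.092).

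Of the channel subunits, Cngb1 passed the test and Cnga2 and Cnga4 did not. Cnga2, the subunit that binds cAMP and can form a channel alone, ranged from 16.72 to 17.03 (median 16.93) on GFP+ arrays and from 16.58 to 16.92 (median 16.79) on GFP- arrays. Cnga4, a modulatory subunit, ranged from 16.89 to 17.22 (median 17.07) on GFP+ arrays and from 16.83 to 17.08 (median 16.99) on GFP- arrays. Their differences of 0.15 ± 0.07 and 0.11 ± 0.08 (SE) did not pass the test (adjusted p = 0.128 and 0.234), although Cnga2 was higher in GFP+ cells in 8 of 8 pools and Cnga4 in 7 of 8. On the same deposited values Cnga2 did pass when limma used a trended robust variance (adjusted p = 0.0317), and Cnga4 did not (0.0898).

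Cngb1, the other modulatory subunit, was the only dim member. It had 7.17, 7.47, 7.52 and 7.37 in odor GFP+ cells, against 6.40, 6.65, 6.79 and 7.11 in odor GFP- cells, and these groups did not overlap. The gap was narrow (7.17 against 7.11), and the share of all probe sets separated in this way was not counted. In vehicle pools Cngb1 had 6.79, 7.16, 7.04 and 7.30 in GFP+ cells, against 6.53, 6.80, 6.60 and 7.04 in GFP- cells, and these groups overlapped. Its difference was 0.49 ± 0.12 (SE; 1.40-fold; adjusted p = 0.00332), with GFP+ above GFP- in 8 of 8 pools. The negative controls moved the same way, with medians averaging 6.36 in odor GFP+ cells and 6.08 in odor GFP- cells, and 6.55 in vehicle GFP+ cells and 6.06 in vehicle GFP- cells. Measured above the negative control median of its own array, Cngb1 stood at 1.03 ± 0.08 in odor GFP+ cells and 0.66 ± 0.30 in odor GFP- cells, and at 0.52 ± 0.45 in vehicle GFP+ cells and 0.68 ± 0.21 in vehicle GFP- cells (SD, n = 4 each). The Cngb1 call thus rests on signals close to background, and on that background-relative scale the vehicle means ran the other way through 1 array, the GFP+ array of vehicle pool 2 at -0.12. Without that pool the values were 0.73 ± 0.18 in vehicle GFP+ cells and 0.65 ± 0.24 in vehicle GFP- cells (SD, n = 3 each).

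Ano2, the calcium-activated chloride channel, had 17.10, 17.16, 17.10 and 17.08 in odor GFP+ cells, against 16.74, 16.65, 16.63 and 16.53 in odor GFP- cells. It had 17.13, 16.73, 17.22 and 17.06 in vehicle GFP+ cells, against 16.67, 16.75, 16.70 and 16.61 in vehicle GFP- cells. Every GFP+ array but that of vehicle pool 2 lay above all 8 GFP- arrays. The difference was 0.42 ± 0.08 (SE; 1.33-fold; adjusted p = 0.000589), and Ano2 passed in 16 of 16 alternatives (adjusted p between 6.4e-07 and 0.0465).

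Slc24a4, the exchanger that clears calcium from the cilia, had 13.92, 13.99, 13.96 and 13.77 in odor GFP+ cells, against 13.73, 13.44, 13.51 and 13.16 in odor GFP- cells. It had 14.18, 13.50, 14.17 and 13.93 in vehicle GFP+ cells, against 13.68, 13.59, 13.72 and 13.56 in vehicle GFP- cells. It was higher in GFP+ cells in 7 of 8 pools, the exception again being vehicle pool 2. The difference was 0.38 ± 0.11 (SE; 1.30-fold; adjusted p = 0.0117).

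Pde1c, the ciliary phosphodiesterase, had 16.17, 16.14, 16.01 and 16.26 in odor GFP+ cells, against 15.62, 15.51, 15.59 and 15.44 in odor GFP- cells. It had 16.10, 15.97, 16.13 and 16.13 in vehicle GFP+ cells, against 15.39, 15.36, 15.43 and 15.39 in vehicle GFP- cells. All 8 GFP+ arrays lay above all 8 GFP- arrays, which held for 1 of the 10 members and for 3.53% of all probe sets. The difference was 0.65 ± 0.07 (SE; 1.56-fold; adjusted p = 9.52e-07), and it passed in 16 of 16 alternatives. Within pools, Pde1c had the largest GFP+ minus GFP- difference of the 10 members in 5 of 8 pools, and Cngb1 had it in the other 3. Among the 9 bright members Pde1c came first in 7 of 8 pools.

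**Figure D2:**
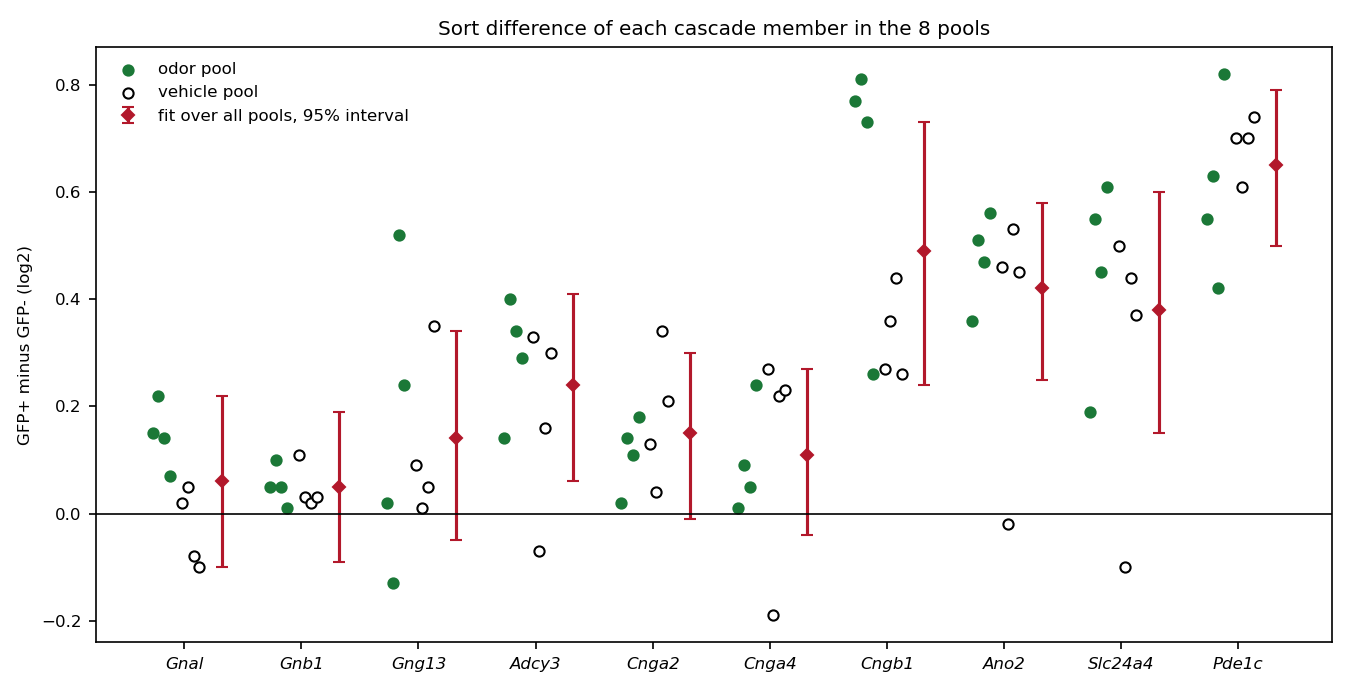
GFP+ minus GFP- log2 difference of each member (horizontal axis) in the 4 odor pools (filled) and the 4 vehicle pools (open), with the limma estimate over all pools and its 95% interval (red). Pde1c lies between 0.42 and 0.82 in all 8 pools, and the open points of Cnga4 at -0.19, Slc24a4 at -0.10, Adcy3 at -0.07 and Ano2 at -0.02 are all vehicle pool 2.

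Taken by stimulus, 4 of 10 members were higher in GFP+ cells of odor pools, where 11.3% of all probe sets were, and 2 of 10 in vehicle pools, where 9.34% were. In odor pools Cngb1 (0.65 ± 0.16), Pde1c (0.60 ± 0.10), Ano2 (0.48 ± 0.11) and Slc24a4 (0.45 ± 0.15, SE) passed, and Adcy3 at 0.29 did not (adjusted p = 0.0804). In vehicle pools Pde1c (0.69 ± 0.10) and Ano2 (0.36 ± 0.11, SE; adjusted p = 0.0327) passed. With the pool as a block, since both arrays of a pool hold cells of the same mice, the vehicle count fell to 1 because Ano2 was lost. Of all probe sets 9.54% were then called higher. Without the GFP+ array of vehicle pool 2 the vehicle count was 3, with Slc24a4 added, where 10.3% of all probe sets were called higher. With quantile normalization it was also 3, with Cngb1 added at 0.63 (adjusted p = 0.00688), where 16.5% were. Ano2 was also lost in vehicle pools without odor pool 2 (adjusted p = 0.0527) or vehicle pool 1, 3 or 4 (adjusted p 0.135 to 0.143). In odor pools Slc24a4 was lost without odor pool 2, 3 or 4 (adjusted p 0.12 to 0.16) or vehicle pool 4 (0.0613), and Cngb1 without odor pool 2 (0.0624), while Adcy3 passed without vehicle pool 2 (0.0434). These counts do not show that odor and vehicle pools differ.

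How much of the sort difference remained depended on what was set equal between arrays. Setting all array medians equal raised the median of all probe sets by 0.337 and called 10 of 10 members higher in GFP+ cells, together with 16424 of all 22206 probe sets. Setting equal the medians of the 1080 odorant receptor probe sets, or of mature neuron markers, moved that median by -0.145 and -0.154, and 2 of 10 members, Pde1c and Ano2, remained called in each, where 1076 and 1549 of all probe sets were called higher. Taken by stimulus, array medians called 10 of 10 members in odor and in vehicle pools, where 59% and 58.6% of all probe sets were called higher. Receptor medians called 2 members in odor and 1 in vehicle pools (3.9% and 2.32% of all probe sets), and neuron marker medians left 1 in vehicle pools (3.28%). In odor pools neuron marker medians called Pde1c, Ano2 and the dim Cngb1 (adjusted p = 0.0462), where 5.06% of all probe sets were called higher. Over all pools Pde1c was then 0.50 and 0.49 on the receptor and neuron marker scales, and Ano2 0.27 and 0.26. On those 2 scales Gnal, Gnb1 and Cnga4 lay slightly below 0, between -0.10 and -0.03, and none of the 3 passed the test. Omp, which is 1 of the neuron markers, was at -0.10 and -0.11 there. Relative to receptor genes or to neuron markers, then, the higher level in GFP+ cells over all pools held for the chloride channel and the phosphodiesterase. In vehicle pools alone Pde1c passed on both scales. Ano2 did not pass there, at 0.13 with receptor medians and 0.16 with neuron marker medians (adjusted p = 0.658 and 0.419).

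**Figure D3:**
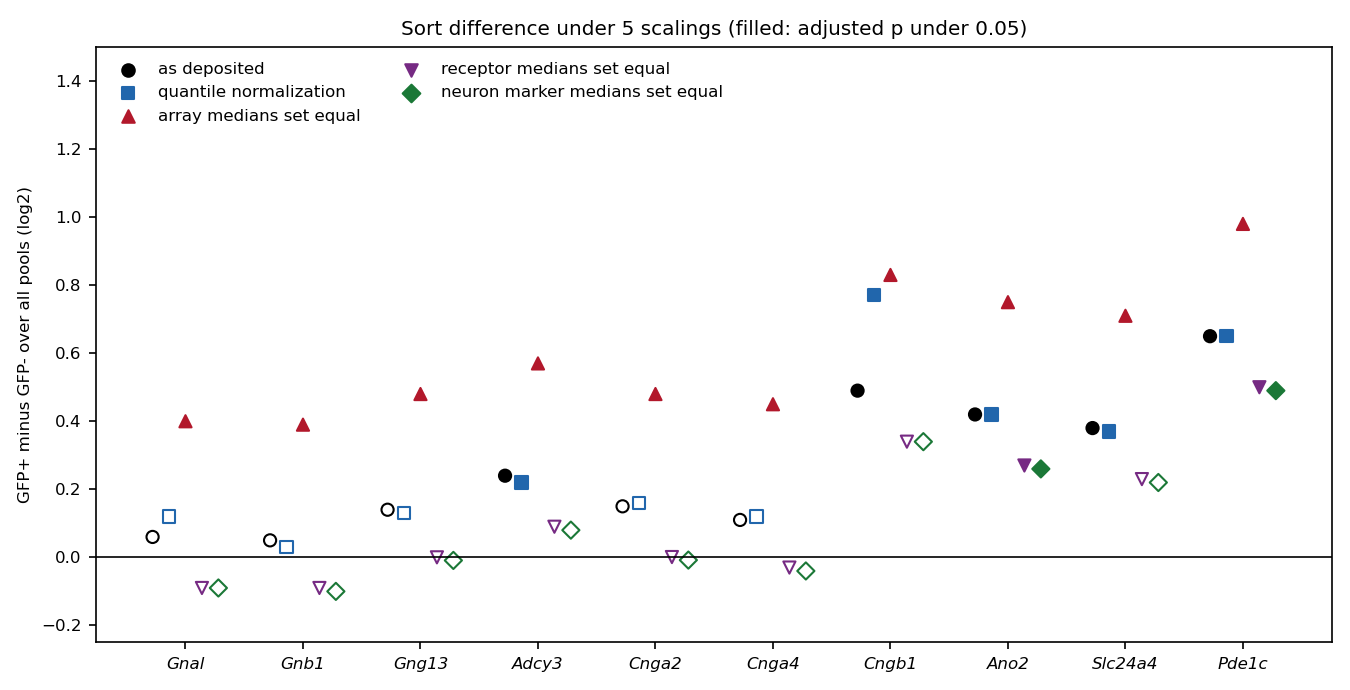
GFP+ minus GFP- log2 difference over all pools (vertical axis) of each member on the deposited scale and 4 other scalings; filled symbols have an adjusted p under 0.05. Every member is filled when array medians are set equal, and Pde1c and Ano2 alone are filled under all 5 scalings.

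The odor itself moved no member past the test. Between odor GFP+ and vehicle GFP+ cells 0 of 10 members were called, where 0.0766% of all probe sets were, and the differences ran from -0.08 (Cnga4) to 0.31 ± 0.16 (SE; Cngb1, adjusted p = 0.733). Between odor GFP- and vehicle GFP- cells 0 of 10 were called, against 0.0495% of all, with differences from -0.18 (Slc24a4) to 0.15 (Pde1c). The odor change of the GFP+ minus GFP- difference was called for 0 of 10, against 0.063% of all, and ran from -0.09 (Pde1c) to 0.31 (Cngb1). At an unadjusted p under 0.05 limma also called 0 of 10 members in each of these 3 comparisons, where 7.15%, 2.61% and 4.65% of all probe sets were called in the same order. With 10 members, 0 is close to those shares. For every member the ranges of odor GFP+ and vehicle GFP+ arrays overlapped, where 2.86% of all probe sets had ranges that did not. In the GFP- fraction Pde1c ranged from 15.44 to 15.62 in odor pools and from 15.36 to 15.43 in vehicle pools, without overlap, as did 2.61% of all probe sets, and its difference of 0.15 ± 0.10 (SE) did not pass the test (adjusted p = 1).

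For most of the cascade these comparisons bound the mean odor difference over all sorted GFP+ cells, on the deposited scale. In bulk RNA a change limited to some of those neurons could not be told from that mean. For the 9 bright members, the 95% intervals of odor GFP+ against vehicle GFP+ lay between -0.35 (Slc24a4) and 0.34 (Gng13). For Cngb1 the interval was -0.04 to 0.65. For Pde1c, the member with the largest sort difference, odor GFP+ cells averaged 16.14 ± 0.10 and vehicle GFP+ cells 16.08 ± 0.08 (SD, n = 4 each), a difference of 0.06 with an interval from -0.15 to 0.27. The S100a5 difference between odor GFP+ and vehicle GFP+ cells was 0.44 ± 0.12 (SE), with no overlap of the arrays, and did not pass over all probe sets (adjusted p = 0.432).

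Some members varied together across arrays. After the group means were taken off, the 45 pairs of members had a median Pearson r of 0.396 over the 16 arrays, from -0.612 to 0.914, and 37 were positive. The closest pairs were Adcy3 with Slc24a4 (0.914), Ano2 with Slc24a4 (0.9) and Cnga4 with Ano2 (0.88). In vehicle pool 2 the GFP+ array was below the other 3 vehicle GFP+ arrays for 9 of 10 members, Cngb1 being the exception. Without it the median fell to 0.153 and 30 of 45 were positive. Adcy3 with Slc24a4 was then at 0.819, Ano2 with Slc24a4 at 0.794, Cnga4 with Ano2 at 0.625 and Adcy3 with Cnga4, 0.754 with the array, at 0.392. These are descriptions over arrays that share hybridisation and normalization. The genes most like the mean of the 10 members over the 16 arrays were Pigg (r = 0.973), Olfr1246 (0.962), Efr3b (0.96), Adam28 (0.953) and Efcab10 (0.953), of 9554 probe sets compared. With group means taken off they were Cdhr1 (0.941), Creb3l1 (0.93), Wbp2 (0.927), Kifap3 (0.927) and Taf2 (0.925). Both of these gene lists include the GFP+ array of vehicle pool 2 and were not made without that array.

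The promoters of the members are shown because Adcy3, Ano2 and Slc24a4 varied together, with r from 0.859 to 0.914 (0.649 to 0.819 without that array), and because EBF (Olf-1) factors, known regulators of olfactory neuron genes, bind sequences built around CCCNNGGG. That core, searched on both strands in windows of 300 bases that end 50 bases after each RefSeq start (GRCm38.p6), was in 6 of 9 member genes (Ano2, Cnga2, Cnga4, Cngb1, Gng13 and Slc24a4) and in 15.4% of all 27025 genes. It was in 6 of the 15 windows of those 9 genes and in 13.7% of all 32851 windows. The core with a T before it and an A after it was in 0 of the 9 and in 1.06% of genes, and the homeodomain motif TAATTA in 0 of the 9 and in 6.12% of genes. Gnal had no entry in the promoter table. The core, in capitals, lies in the following stretches before the start, 5′ to 3′ on the strand of the gene, at chr6:125711095-125711154 (+, Ano2), chr12:102128592-102128651 (+, Slc24a4), chrX:71991757-71991816 (+, Cnga2), chr8:95306681-95306740 (-, Cngb1) and chr17:25717051-25717111 (+, Gng13, where a pair of cores overlap).
Ano2: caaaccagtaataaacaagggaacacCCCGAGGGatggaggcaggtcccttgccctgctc
Slc24a4: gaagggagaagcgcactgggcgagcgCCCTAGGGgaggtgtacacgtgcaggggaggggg
Cnga2: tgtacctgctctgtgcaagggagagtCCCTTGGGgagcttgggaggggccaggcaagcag
Cngb1: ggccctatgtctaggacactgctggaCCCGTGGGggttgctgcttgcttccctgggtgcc
Gng13: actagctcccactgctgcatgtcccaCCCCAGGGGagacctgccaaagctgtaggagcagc
The core started 67 bases before the start in Ano2 and 109 in Slc24a4, and a match of letters is not evidence of binding. That start of Ano2 lies inside the gene, which spans chr6:125690419-126040133. In Cnga4, not printed, the core began 24 bases after a start that also lies inside its gene (chr7:105400024-105408775). Pde1c and Adcy3, both higher in GFP+ cells, had no core in these windows, and Gng13 and Cnga2, which did not pass the test, had one.

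Relatives of the members were counted by gene family, over all pools. Of all probe sets 22.9% were called higher and 15.1% lower on the deposited scale. With array medians set equal 74% were called higher, and with quantile normalization 29.3%. Of 15 other G protein alpha genes, 6 were lower in GFP+ cells and 0 higher (5 were called higher with array medians set equal and 2 with quantile normalization), led by Gnai2 at -4.43 ± 0.19, Gnas at -3.26 ± 0.15, Gnat3 at -2.59 ± 0.18 and Gnai3 at -1.18 ± 0.13 (SE). Gnas encodes Gs, the widely expressed relative of Golf, and averaged 8.95 in odor GFP+ cells and 12.25 in odor GFP- cells. Gnat3, gustducin, is known from chemosensory cells, and its GFP+ level (4.57 in odor and 4.92 in vehicle pools) lay below the negative control medians, so that the size of its difference is not measured exactly. Of 11 other gamma genes, 7 were lower and 0 higher (3 higher with array medians set equal), led by Gng2 (-2.78), Gng12 (-2.64), Gng8 (-3.90) and Gng5 (-1.15), and Gng8 is itself a marker of immature olfactory neurons. Of 3 beta genes Gnb5 was higher, at 0.44. The lower levels of these relatives ran beside the lower markers of other cell types in GFP+ cells, whose part was not tested.

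Of 9 other adenylyl cyclases, 8 had a mean at or below the negative control level, and 2 were lower (Adcy7 at -1.53 and Adcy6 at -0.48) and 1 higher (Adcy5 at 0.30), while Adcy2 was at 0.00. Adcy7 lay below the negative controls in GFP+ cells (5.92 in odor and 5.51 in vehicle pools) and above them in GFP- cells (7.34 and 7.14), and Adcy5 lay below them in all 4 groups, at 4.99 to 5.46. The other channel subunits Cnga1 (0.21), Cnga3 (0.20) and Cngb3 were all as dim, and 0 of 3 passed. Of 9 anoctamins 4 were higher and 3 lower, with Ano8 at 0.54 and Ano1 at 0.30 among the higher and Ano7 (-0.65), Ano10 (-0.57) and Ano6 (-0.49) the lower, of which 0 passed with array medians set equal. Of the 9, 4 had a mean at or below the negative control level, and Ano7 averaged 5.67 in odor GFP+ cells and 5.49 in vehicle GFP+ cells. Of 5 relatives of Slc24a4, 3 were higher, Slc24a2 (0.60 ± 0.16), Slc24a5 (0.48) and Slc24a1 (0.38), and the mitochondrial exchanger Slc8b1 was lower (-1.39). Of those 5, 3 had a mean at or below the negative control level: Slc24a5 averaged 4.28 to 4.86 and Slc24a1 5.76 to 6.40 over the 4 groups, so that their calls rest on signals at or below background. Of 4 phosphodiesterases Pde4c (0.33) was higher, and Pde4b (-1.74) and Pde1b (-0.37) were lower. The mean GFP+ levels of Slc8b1 (5.39 in odor and 5.14 in vehicle pools) and Pde4b (5.37 and 5.86) lay below the negative control medians, so the sizes of their differences are not measured exactly. The higher calls depended on scaling, since with receptor medians set equal 1 anoctamin, 0 exchangers, 0 beta genes, 0 cyclases and 0 phosphodiesterases were called higher. Of all probe sets 4.85% were called higher on that scale, and in families this small such counts are close to that share. The calls of Adcy5, Ano1, Slc24a5, Slc24a1, Pde1b and Pde4c were all lost without odor pool 2 (adjusted p 0.0538 to 0.102), and each also without 2 to 5 other pools. With the pool as a block Adcy5, Slc24a1 and Pde1b did not pass (adjusted p = 0.07, 0.0577 and 0.0569).

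**Figure D4:**
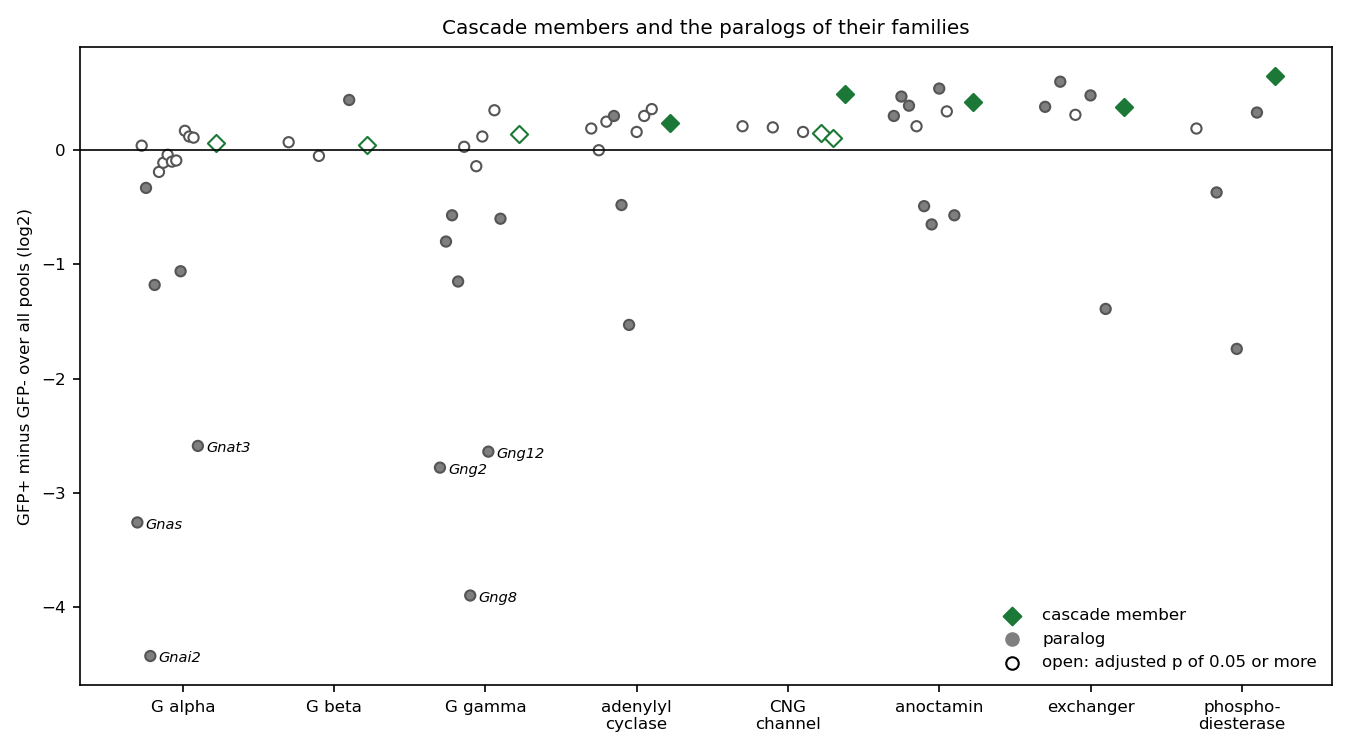
GFP+ minus GFP- log2 difference over all pools (vertical axis) of the members (green diamonds) and their paralogs (grey circles) by family; open symbols have an adjusted p of 0.05 or more. The G alpha and G gamma paralogs reach down to -4.43 (Gnai2) and -3.90 (Gng8), while the members lie between 0.05 and 0.65.

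Genes that regulate or support the cascade were also counted, over all pools. Of all probe sets 22.9% were higher and 15.1% lower, with a median of 0.14. Of 15 feedback and adaptation genes, 6 were lower in GFP+ cells and 3 higher, with a median of 0.03. The 3 higher are close to the share of all probe sets. Rgs2, a regulator of G protein signalling, was at -5.53 ± 0.29 and Pde2a, a cGMP-stimulated phosphodiesterase, at -3.36 ± 0.15 (SE). Ppp3ca, a catalytic subunit of calcineurin, was at -0.82 and Grk3, a receptor kinase, at -0.81, although Grk3 averaged 5.36 in odor GFP+ cells and 6.17 in odor GFP- cells, around the negative controls. Rgs2 averaged 4.93 in odor GFP+ cells and 10.62 in odor GFP- cells, so its GFP+ level was below the negative controls and the size of its difference is not measured exactly. Pde2a is also on the list of guanylate cyclase D neuron markers used here. The part of other cell types in these lower levels was not tested. Pde4a, the phosphodiesterase outside the cilia in these neurons, was not among the 4 genes of smallest p, and was named after its value of 0.49 was seen.

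Of 10 chloride and calcium transport genes 3 were higher and 1 lower. Slc8a1, a sodium-calcium exchanger, was higher by 0.96 ± 0.12 (SE; adjusted p = 8.13e-06), and the plasma membrane calcium pump Atp2b1 (0.35) and Slc8a3 (0.35) were higher too. Slc8a3 averaged 5.21 to 5.74 over the 4 groups, below the negative controls, and 4 of the 10 genes had a mean at or below them. Slc4a1, an anion exchanger abundant in red cells, was lower (-3.45), as was the erythroid marker Alas2 (-2.36). Slc8a1 remained called on every scaling tried, at 0.81 to 1.30, while Atp2b1 and Slc8a3 did not pass with receptor or neuron marker medians set equal, nor Slc8a3 without odor pool 3 (adjusted p = 0.0618). Of 5 G protein assembly genes Ric8b, an exchange factor of Golf, was higher (0.19), a call lost with the pool as a block (adjusted p = 0.0655) and without any 1 of 6 of the 8 pools (0.0567 to 0.0922).

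Of 13 genes of ciliary trafficking 8 were higher and 0 lower, with a median of 0.27 against 0.14 over all probe sets. Of all probe sets 22.9% were higher and 15.1% lower. The 4 with the smallest p were Bbs1 (0.41 ± 0.08), Cep290 (0.58 ± 0.12), Bbs7 (0.38 ± 0.09) and Bbs5 (0.45 ± 0.12, SE), which are needed to build cilia or to carry cargo into them. With receptor medians set equal 0 of 13 were called, and with neuron marker medians 2 of 13. Of all probe sets 4.85% and 6.98% were called higher on those scales, and 0 of 13 is close to the first share. Taken by stimulus on the deposited scale, 1 of 13 was higher in odor pools and 7 of 13 in vehicle pools. Of all probe sets 11.3% and 9.34% were, and these counts do not show that odor and vehicle pools differ. No gene of these 4 lists or of the 8 families was called in any of the 3 odor comparisons.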

How the data were processed

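RNA of GFP+ and GFP- cells of 8 pools of mice was measured on 16 arrays in 4 groups, grouped by the sample labels. The authors deposited 1 log2 signal per probe set and array, made with Affymetrix Expression Console per the submitters' processing notes. Its version, summarization and normalization were not given in the sources used here. Probe sets were named through the platform annotation, and 5222 negative control entries gave the background. No filter or further scaling was applied to the main values. Group means were fitted with limma 3.58.1 (R 4.3.3), p-values were adjusted by Benjamini-Hochberg over 22206 probe sets, and 6 comparisons were made; the fit was tested on simulated data. Members, lists and tests were chosen with earlier results of these data known. List genes named are up to 4 past the threshold, smallest p first, and the nearest paralogs Gnas, Cnga1, Cnga3, Adcy2 and Ano1; genes of like pattern are the 5 highest correlations among probe sets with a mean of at least 8. Alternatives were 4 scalings, leaving out dim probe sets, a trended robust variance, fitting the compared groups alone, leaving out each pool, a pool or number block and, added after seeing the data, leaving out the GFP+ array of vehicle pool 2. Both arrays of a pool come from the same mice, which pairs them by design (correlation of deviations 0.0119 to 0.224). Precision is limited by the number of arrays. Promoter sequences are RefSeq's.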

Additional observations from a re-analysis of the deposited data

Results flagged for a closer look

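In each group of 4 arrays, and each set of 4 pools, the level and the GFP+ minus GFP- difference of every member were checked for a value far from the other 3, which made 60 checks, of which chance alone would single out about 1 in 20. Of these, 5 stood out, and 3 of the 5 concern vehicle pool 2. Cnga4 was at 16.89 on the GFP+ array of vehicle pool 2, below the other 3 vehicle GFP+ arrays, and its GFP+ minus GFP- difference there was -0.19. Ano2 had a difference of -0.02 in the same pool, while the other vehicle pools had 0.45 to 0.53. Gnb1 had a difference of 0.11 in vehicle pool 1, above 0.02 to 0.03 in the other vehicle pools. Cngb1 had a difference of 0.26 in odor pool 4, below 0.73 to 0.81 in the other odor pools, and its GFP- array there was the brightest of that group, at 7.11.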

How the results depend on the processing

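The count of members higher in GFP+ cells moved with the scaling. With array medians set equal it was 10 over all pools, 10 in odor pools and 10 in vehicle pools. With receptor medians set equal it was 2 over all pools, 2 in odor pools and 1 in vehicle pools. Neuron marker medians gave 2 over all pools and 1 in vehicle pools, and in odor pools called Pde1c, Ano2 and Cngb1. In vehicle pools it was also 1 when the groups compared were fitted alone and 1 with the pool as a block (6.58% and 9.54% of all probe sets). The block changed no other member's call. A trended robust variance in limma added Cnga2 over all pools (adjusted p = 0.0317), which made 6 members. It also added Adcy3 in odor pools (adjusted p = 0.0204). Of all probe sets 22.5% and 10.9% were then called higher, in the same order. Leaving out 1 pool gave 4 to 5 over all pools, 2 to 5 in odor pools and 1 to 3 in vehicle pools, and 0 in each odor comparison. The shares of all probe sets in those fits are not given here. The counts without 1 pool therefore do not show whether the members moved more than other genes. The 3 odor comparisons gave 0 members under every alternative run. Other signs that turned belonged to differences that did not pass the test in the comparison given, and the scalings shift all genes of an array together. Over all pools, receptor medians gave -0.09 for Gnal, -0.09 for Gnb1, -0.03 for Cnga4, -0.10 for Omp and -0.14 for Adcy2. Neuron marker medians gave -0.09 for Gnal, -0.10 for Gnb1, -0.009 for Gng13, -0.008 for Cnga2, -0.04 for Cnga4, -0.11 for Omp and -0.15 for Adcy2. Quantile normalization gave -0.01 for Omp and -0.13 for Adcy2, and leaving out 1 pool gave -0.06 to 0.09 for Adcy2. In odor pools Gnb1 was -0.009 with receptor medians and -0.06 with neuron marker medians, and Cnga4 -0.01 with neuron marker medians. In vehicle pools receptor medians gave -0.18 for Gnb1, -0.10 for Gng13, -0.05 for Adcy3, -0.05 for Cnga2 and -0.10 for Cnga4. Neuron marker medians there gave -0.15, -0.07, -0.02, -0.02 and -0.07 for the same genes in that order. Gnal in vehicle pools was 0.32 with array medians, 0.05 with quantile normalization and 0.0005 without the GFP+ array of vehicle pool 2. For the odor in GFP+ cells Cnga4 was 0.02 with receptor medians, and the odor change of the Pde1c difference was 0.08 with receptor medians and 0.002 with neuron marker medians. Cngb1 is limited by its closeness to the negative controls, and the brightest members by their place near the top of the scale.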
